A study of Mus musculus with 8 samples.

Results

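Among the 1329 genes deposited as significant between ascending aortas of DT-061-treated and vehicle-treated mice, 6 act on glucose uptake and on the early, regulated steps of glycolysis: the glucose transporter gene Slc2a3, the hexokinase gene Hk2, the phosphofructokinase gene Pfkp and the regulator genes Pfkfb1, Pfkfb3 and Pfkfb4. They were taken by their mouse symbols, and all 6 of the 6 symbols searched were in the table. Poly-A RNA was sequenced from 4 libraries of mice given DT-061, an activator of protein phosphatase 2A (PP2A), at 5 mg/kg by mouth 2 times a day, and from 4 libraries of mice given its vehicle, a mixture of N,N-dimethylacetamide, Kolliphor HS-15 and water, on the same schedule. Dosing began at 5 weeks of age and lasted 4 weeks. All mice in both groups were Fbn1 mgR/mgR, homozygous for an allele that lowers expression of the fibrillin-1 gene throughout the body and used as a model of Marfan syndrome, so the comparison is between diseased aortas with and without the drug, and no healthy aorta was part of it. The labels do not say whether each library came from a separate mouse, so p-values measure the spread between these libraries, which may in part be technical. Recovered depths were 14400000 to 15600000 fragments in the DT-061 libraries and 14100000 to 22200000 in the vehicle libraries, to 3 significant digits.

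Glucose enters cells through transporters of the GLUT family, of which Slc2a3 encodes the high-affinity member GLUT3, typical of neurons and also found in leukocytes and platelets. Hexokinase then phosphorylates glucose and so traps it in the cell, and phosphofructokinase commits the sugar to glycolysis. The enzymes of the Pfkfb family both make and break fructose 2,6-bisphosphate, a strong allosteric activator of phosphofructokinase, and their isoforms differ in the balance of kinase and phosphatase activity. Pfkfb3 is the inducible isoform with a strong bias to kinase activity, known for its role in activated endothelial cells and inflammatory cells. Pfkfb4 is an isoform first described in testis and induced by low oxygen, and Pfkfb1 is the isoform of liver and muscle.

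Of the 6 genes, 5 fell with DT-061 and 1 rose on the values as deposited, and Hk2, Pfkfb1, Pfkfb4 and Slc2a3 turned direction under at least 1 other scaling of the libraries. Pfkfb1, Pfkfb3, Pfkfb4, Slc2a3 and Hk2 were between 2.1-fold and 1.43-fold lower in the DT-061 aortas, whereas Pfkp was 1.32-fold higher. The level of Pfkp relative to each of the other 5 genes in the same library was higher in every DT-061 library than in any vehicle library. That is likely for any gene selected as higher set over genes selected as lower, and after quantile normalization it held for 2 of the 5. The median change of the table was -0.58 on the log2 scale, against -0.55 for the 6 genes with Pfkp included. The 5 falls ran from -0.86 to -0.34 and lay on both sides of the table's median. That median is taken over genes that rose and genes that fell in a list selected for significance, so it is no neutral baseline. Of all genes in the table, 65.0% fell and 30.4% rose by the same test. The 2 groups of libraries did not overlap in 3 of the 6 genes, all lower with DT-061, against 78.3% of the genes of the table in either direction and 48.2% on the lower side. Since the genes had been selected on this contrast, neither the calls nor their p-values are independent evidence. The test was limma on log2(FPKM + 1) of the 8 libraries, with Benjamini-Hochberg adjustment over 1329 genes. FPKM (fragments scaled to gene length and library size) is a level per length, so levels of different genes can be set side by side.

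**Figure D1:**
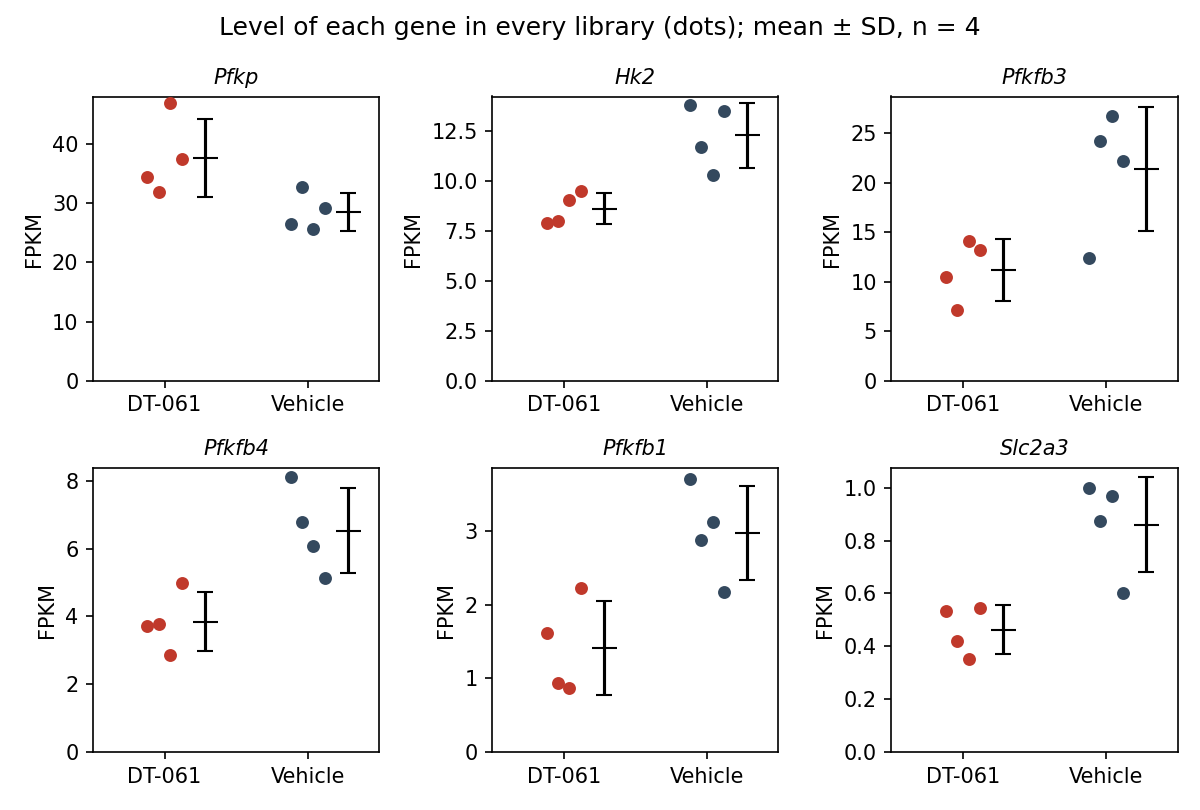
FPKM (y axis, from 0) of the 6 genes in each of the 4 DT-061 libraries (red, left) and the 4 vehicle libraries (blue, right); bars give the mean and SD of each group. Pfkp is higher with DT-061 and the other 5 are lower, and the dots of the groups do not overlap for Hk2, Pfkfb4 and Slc2a3; Hk2, Pfkfb1, Pfkfb4 and Slc2a3 turned direction under at least 1 other scaling of the libraries.

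Promoters of Hk2, Pfkfb3 and Pfkfb4 are shown because these genes are textbook targets of the low-oxygen response, whose DNA element has a short core, ACGTG or GCGTG, and that of Pfkp is shown beside them as the gene that rose. RefSeq sequence (GRCm38.p6) was available for 5 of the 6 genes, with 9 start sites in all, and the 250 bases before each start site were used. Each is written 5′ to 3′ on the strand of the gene, with ACGTG and GCGTG, on either strand, in capitals. The windows are chr6:82774455-82774704 for Hk2, chr2:11553930-11554179 for the upstream start of Pfkfb3 and chr13:6648772-6649021 for Pfkp, all on the minus strand, and chr9:108991652-108991901 on the plus strand for Pfkfb4.
Hk2: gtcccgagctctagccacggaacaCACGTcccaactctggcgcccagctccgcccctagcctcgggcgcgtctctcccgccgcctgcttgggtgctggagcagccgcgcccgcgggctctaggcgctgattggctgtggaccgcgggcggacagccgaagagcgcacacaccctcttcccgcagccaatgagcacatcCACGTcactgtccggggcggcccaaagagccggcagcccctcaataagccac
Pfkfb3: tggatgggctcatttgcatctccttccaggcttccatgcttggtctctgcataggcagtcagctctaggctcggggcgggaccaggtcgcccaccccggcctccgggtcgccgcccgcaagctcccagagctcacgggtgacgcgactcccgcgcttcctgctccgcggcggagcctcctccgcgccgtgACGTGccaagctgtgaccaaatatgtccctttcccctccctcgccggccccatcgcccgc
Pfkfb4: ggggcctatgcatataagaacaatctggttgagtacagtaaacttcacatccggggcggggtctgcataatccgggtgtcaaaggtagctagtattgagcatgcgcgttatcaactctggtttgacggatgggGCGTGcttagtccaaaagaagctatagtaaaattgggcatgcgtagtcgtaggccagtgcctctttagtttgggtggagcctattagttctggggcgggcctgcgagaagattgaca
Pfkp: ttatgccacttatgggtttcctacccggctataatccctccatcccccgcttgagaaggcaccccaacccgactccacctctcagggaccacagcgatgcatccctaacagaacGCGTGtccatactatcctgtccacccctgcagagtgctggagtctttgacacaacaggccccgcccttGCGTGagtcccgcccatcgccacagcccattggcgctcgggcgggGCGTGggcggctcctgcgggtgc

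Hk2 held ACGTG at 2 places, with the first base of the match at -226 and -52 from the start, and Pfkfb3 held it at -60. Pfkfb4 held GCGTG at -117. Positions are counted from RefSeq starts, and the gene spans given below come from another annotation. The matches shown for Pfkfb3 and Pfkfb4 lie inside those spans. Pfkp, the gene that rose, held GCGTG at 3 places, at -136, -68 and -23. Of the 9 windows, 6 held at least 1 of the cores, the 4 shown among them. Of the 5 windows not shown, the second one of Pfkfb3 held ACGTG and GCGTG, 1 of the 4 of Pfkfb1 held GCGTG at -178, and the other 3 of Pfkfb1 held neither. The letters were thus found in genes of both directions of change, and not in every window of a gene that fell. They are common: 16.6% of all 32851 promoter windows of this length held ACGTG, 28.2% held GCGTG and 38.6% held at least 1 of them, and 44.7% of the 1276 windows of genes in the table did. The 6-letter E-box CACGTG, which contains ACGTG on both strands, was in 6.02% of all windows and in 1 of these 9, the second one of Pfkfb3. A match is a description of the sequence.

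The levels ordered the genes in nearly the same way in all libraries. Pfkp had the highest level in 7 of the 8 libraries, and Pfkfb3 exceeded it in vehicle library 3. The ranges of the pair overlapped in the vehicle group and not in the DT-061 group. Pfkfb3 and Hk2 came next, with ranges that overlapped in both groups. Hk2 was above Pfkfb3 in DT-061 library 2 and vehicle library 1. Pfkfb4, Pfkfb1 and Slc2a3 followed in that order in 8 of the 8 libraries. Their ranges did not overlap each other within a group.

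The transporter gene Slc2a3 (ENSMUSG00000003153, GRCm38 chromosome 6, 122727809 to 122801640, minus strand) had 0.534, 0.419, 0.353 and 0.543 FPKM in the DT-061 libraries, against 0.998, 0.872, 0.97 and 0.6 FPKM in the vehicle libraries. The groups did not overlap, and vehicle library 4 lay close to the DT-061 range. Slc2a3 fell by 0.34 ± 0.11 log2 units (SE, n = 4 per group; limma adjusted p = 0.023), with 0.462 ± 0.0925 FPKM in DT-061 aortas and 0.86 ± 0.181 FPKM in vehicle aortas (SD). It was the lowest of the 6 genes, with about 37 to 140 fragments per library as estimated from the exonic length and the recovered depth, and the log2(FPKM + 1) scale understates the change of a gene this low. The ratio of the means was 1.86-fold lower with DT-061. The call ended without vehicle library 2 or without vehicle library 3 (limma adjusted p = 0.05 and 0.059). With quantile normalization Slc2a3 was higher with DT-061, by 0.44 (log2; limma adjusted p = 0.024), and with rescaling to a common median its change was -0.01.

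Hk2 (ENSMUSG00000000628, chromosome 6, 82725025 to 82774454, minus strand), the hexokinase of insulin-sensitive tissues that binds to mitochondria, had 7.92, 8.01, 9.05 and 9.5 FPKM in the DT-061 libraries, against 13.8, 11.7, 10.3 and 13.5 FPKM in the vehicle libraries. Every DT-061 value was below every vehicle value. Hk2 averaged 8.62 ± 0.781 FPKM with DT-061 and 12.3 ± 1.63 FPKM in vehicle aortas (SD, n = 4) and fell by 0.47 ± 0.12 on the log2 scale (SE; limma adjusted p = 0.017). Unlike Slc2a3, Hk2 in vehicle library 4 was among the higher values of its group. At 1.43-fold it was the smallest ratio of means among the 5 genes that fell, and its log2 change was 0.11 above the median change of the table. With the common median it turned to 0.31, without passing the test (limma adjusted p = 0.28).

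Pfkp (ENSMUSG00000021196, chromosome 13, 6579768 to 6648777, minus strand), which encodes the platelet-type subunit of phosphofructokinase and is expressed in many tissues, had 34.4, 32.0, 47.0 and 37.5 FPKM in the DT-061 libraries, against 26.5, 32.8, 25.6 and 29.2 FPKM in the vehicle libraries. DT-061 library 3 was the highest. The groups overlapped only in that vehicle library 2 stood above DT-061 library 2. Pfkp averaged 37.7 ± 6.59 FPKM with DT-061 and 28.5 ± 3.23 FPKM in vehicle aortas (SD, n = 4) and rose by 0.38 ± 0.14 on the log2 scale (SE; limma adjusted p = 0.028), which is 0.96 above the median change of the table. It stayed higher with both other scalings, at 1.21 with the common median (limma adjusted p = 0.0066) and 0.42 with quantile normalization (limma adjusted p = 0.062). The call ended without DT-061 library 4, vehicle library 1 or vehicle library 3 (limma adjusted p of 0.055 to 0.069). The exons of Pfkp share 5.58% of their length with exons of Pitrm1 on the opposite strand, and no source used here gives the strand setting of the counting.

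All 3 Pfkfb genes in the table fell as deposited, and Pfkfb1 and Pfkfb4 turned direction under other scalings. Pfkfb3 (ENSMUSG00000026773, chromosome 2, 11471433 to 11554077, minus strand) had 10.5, 7.11, 14.1 and 13.2 FPKM in the DT-061 libraries, against 12.4, 24.2, 26.8 and 22.2 FPKM in the vehicle libraries. Vehicle library 1 lay within the DT-061 range, and the other vehicle libraries were all above it. Pfkfb3 averaged 11.2 ± 3.13 FPKM with DT-061 and 21.4 ± 6.3 FPKM in vehicle aortas (SD, n = 4). It fell by 0.86 ± 0.28 on the log2 scale (SE; limma adjusted p = 0.023) and lost its call without vehicle library 2 or 3 (limma adjusted p = 0.051 and 0.055). It stayed lower with both other scalings, at -0.07 and -0.54, without passing the test.

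Pfkfb4 (ENSMUSG00000025648, chromosome 9, 108991778 to 109032228, plus strand) had 3.72, 3.78, 2.86 and 4.99 FPKM in the DT-061 libraries, against 8.13, 6.8, 6.08 and 5.13 FPKM in the vehicle libraries. The groups did not overlap, though DT-061 library 4 and vehicle library 4 were nearly level. Pfkfb4 fell by 0.64 ± 0.18 log2 units (SE, n = 4 per group; limma adjusted p = 0.018), with 3.84 ± 0.873 FPKM in DT-061 aortas and 6.54 ± 1.26 FPKM in vehicle aortas (SD). With the common median and with quantile normalization it turned to 0.06 and 0.04.

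Pfkfb1 (ENSMUSG00000025271, chromosome X, 150588229 to 150643878, plus strand) had 1.61, 0.931, 0.874 and 2.23 FPKM in the DT-061 libraries, against 3.71, 2.87, 3.12 and 2.17 FPKM in the vehicle libraries. DT-061 library 4 stood just above vehicle library 4, and the groups were otherwise apart. Pfkfb1 fell by 0.74 ± 0.23 log2 units (SE, n = 4 per group; limma adjusted p = 0.021), with 1.41 ± 0.64 FPKM in DT-061 aortas and 2.97 ± 0.639 FPKM in vehicle aortas (SD). With the common median it lost its call at -0.19 (limma adjusted p = 0.44), and with quantile normalization it turned to 0.2. The exons of Pfkfb1 share 3.06% of their length with exons of Apex2 on the opposite strand.

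Summed over the 3 Pfkfb genes, the level was 15.9, 11.8, 17.8 and 20.4 FPKM in the DT-061 libraries. In the vehicle libraries it was 24.2, 33.9, 36.0 and 29.5 FPKM, and the groups did not overlap. All 3 genes had been selected on this contrast and fell, so a sum that separates the groups is likely and is no finding. The groups overlapped for Pfkfb3 and Pfkfb1 taken singly. The sum was taken only on the values as deposited. The mix of these 3 isoforms did not separate the groups. A Pfkfb gene outside the table has no values here, so these are shares of 3 selected genes and not of the whole family. Pfkfb3 made up 67.6% ± 8.1 of the sum with DT-061 and 68.1% ± 11.4 in vehicle aortas (SD, n = 4). Pfkfb4 made up 24.0% ± 6.52 with DT-061 and 22.0% ± 7.85 with vehicle. Pfkfb1 made up 8.46% ± 2.71 with DT-061 and 9.95% ± 3.63 with vehicle. The ranges of all 3 shares overlapped between the groups. Vehicle library 1 stood out by its mix, with 51.1% from Pfkfb3 against 71.4% to 75.3% in the other vehicle libraries.

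**Figure D2:**
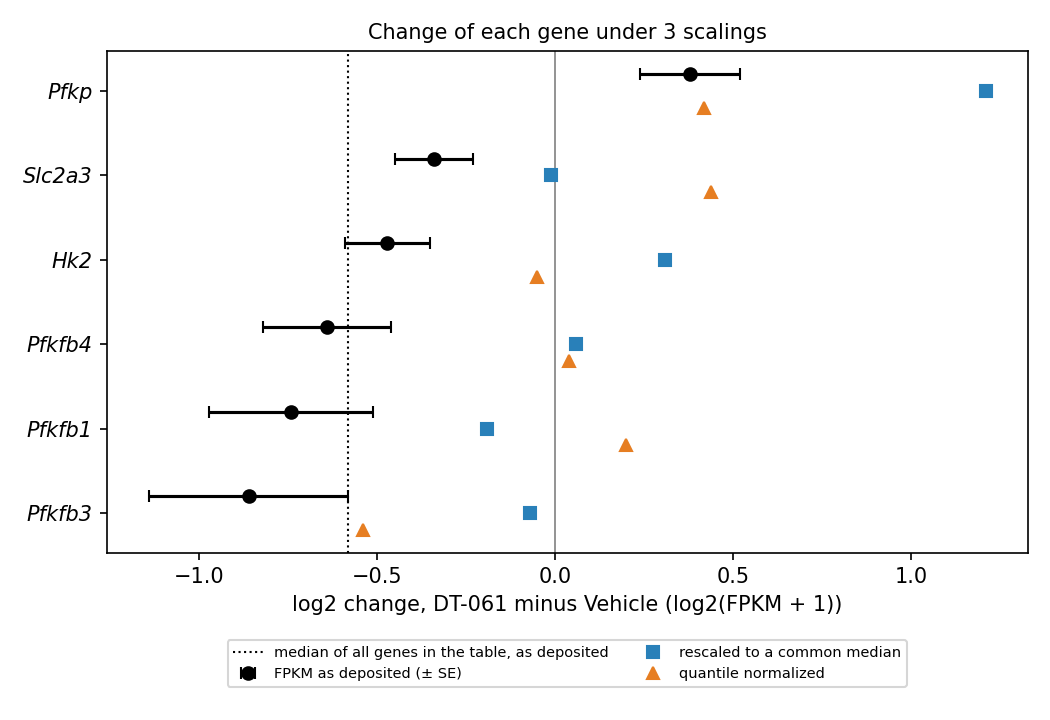
Change of each gene (x axis, DT-061 minus vehicle on the log2(FPKM + 1) scale) as deposited (black, with SE), with each library rescaled to a common median (blue) and with quantile normalization (orange); the dotted line is the median change of all genes in the table, -0.58. Pfkp is above 0 under all 3; Hk2 and Pfkfb4 cross 0 with the common median, and Slc2a3, Pfkfb4 and Pfkfb1 cross it with quantile normalization.

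The direction of the changes of Hk2, Pfkfb1, Pfkfb4 and Slc2a3 thus rests on the scaling of the libraries. Pfkp stayed higher and Pfkfb3 lower under each scaling, though not always with a call. Rescaling to a common median moved the changes of all genes by a median of 0.69, and quantile normalization by 0.56. Both assume a balance of higher and lower genes that a table selected for significance need not have. A ratio of a pair of genes in the same library does not depend on the depth or total to which that library was scaled. The 6 genes give 15 such pairs. In 5 of the 5 pairs with Pfkp the groups did not overlap, and in 0 of the 10 pairs without Pfkp were they apart. Pfkp was the only one of the 6 genes that rose. A gene selected as higher, set over genes selected as lower, is likely to separate the groups. The share over all such pairs of the table was not computed, so these counts are not shown to be particular to Pfkp.

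Pfkp and Hk2 were the only 2 of 24 listed glycolytic enzyme genes in the table, so their ratio is not that of the enzymes as a whole. Pfkp over Hk2 was 4.34, 4.0, 5.2 and 3.94 in the DT-061 libraries, against 1.92, 2.79, 2.49 and 2.16 in the vehicle libraries. The means were 4.37 ± 0.579 with DT-061 and 2.34 ± 0.38 in vehicle aortas (SD, n = 4). Pfkp over Pfkfb3 was 3.49 ± 0.71 with DT-061 and 1.44 ± 0.501 with vehicle, and Pfkp over Pfkfb4 was 10.4 ± 4.07 with DT-061 and 4.49 ± 1.02 with vehicle. The ratio to Pfkfb1 spanned 16.8 to 53.8 with DT-061 and 7.15 to 13.5 with vehicle, and that to Slc2a3 spanned 64.4 to 133 with DT-061 and 26.4 to 48.6 with vehicle. These ratios are descriptions without a test, because a gene that rose and genes that fell had been selected into the table on the same libraries. After quantile normalization, which does not keep ratios, 2 of the 5 pairs remained apart, those with Hk2 and Pfkfb4.

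**Figure D3:**
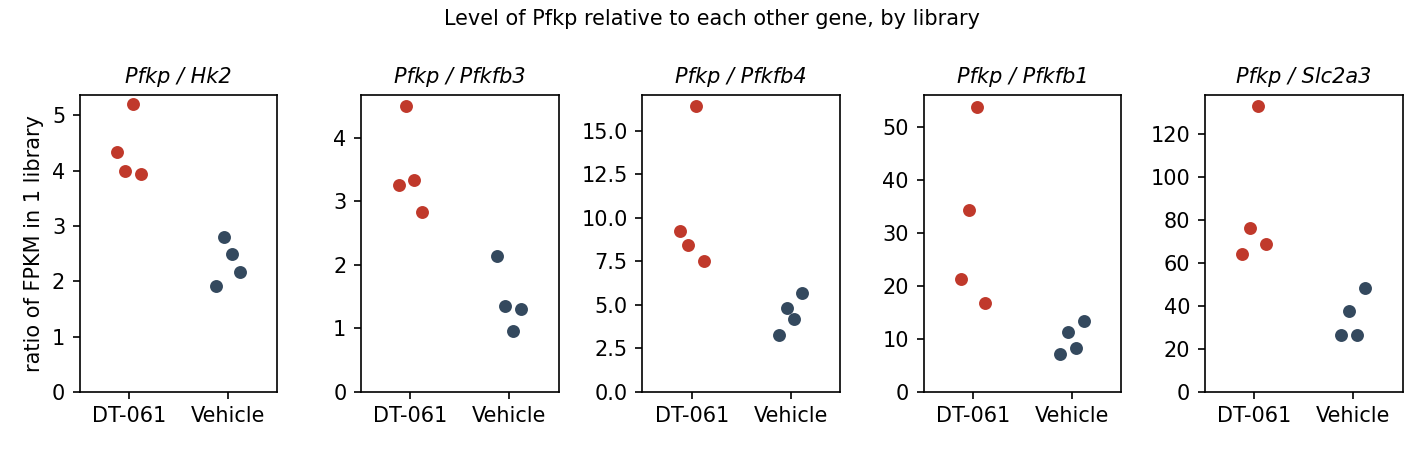
Ratio of the FPKM of Pfkp to that of each other gene in the same library (y axis, from 0), with the 4 DT-061 libraries in red on the left and the 4 vehicle libraries in blue on the right of each panel. In each of the 5 panels all DT-061 dots lie above all vehicle dots; after quantile normalization 2 of the 5 pairs stayed apart.

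Within the groups, the genes did not vary as one. Deviations of log2(FPKM + 1) from the group mean were correlated over the 8 libraries, as a description, since the libraries of a group share its mean. Only the values as deposited were used, and these r were not computed under the other scalings. Pfkfb1, Pfkfb4 and Slc2a3 varied together, with a Pearson r of 0.86 for Pfkfb1 and Pfkfb4, 0.85 for Pfkfb1 and Slc2a3, and 0.78 for Pfkfb4 and Slc2a3. All 3 were lowest of their group in DT-061 library 3 and in vehicle library 4. Pfkp and Pfkfb3 had an r of 0.57. Hk2 was close to none of the others, with r from -0.29 to 0.36.

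**Figure D4:**
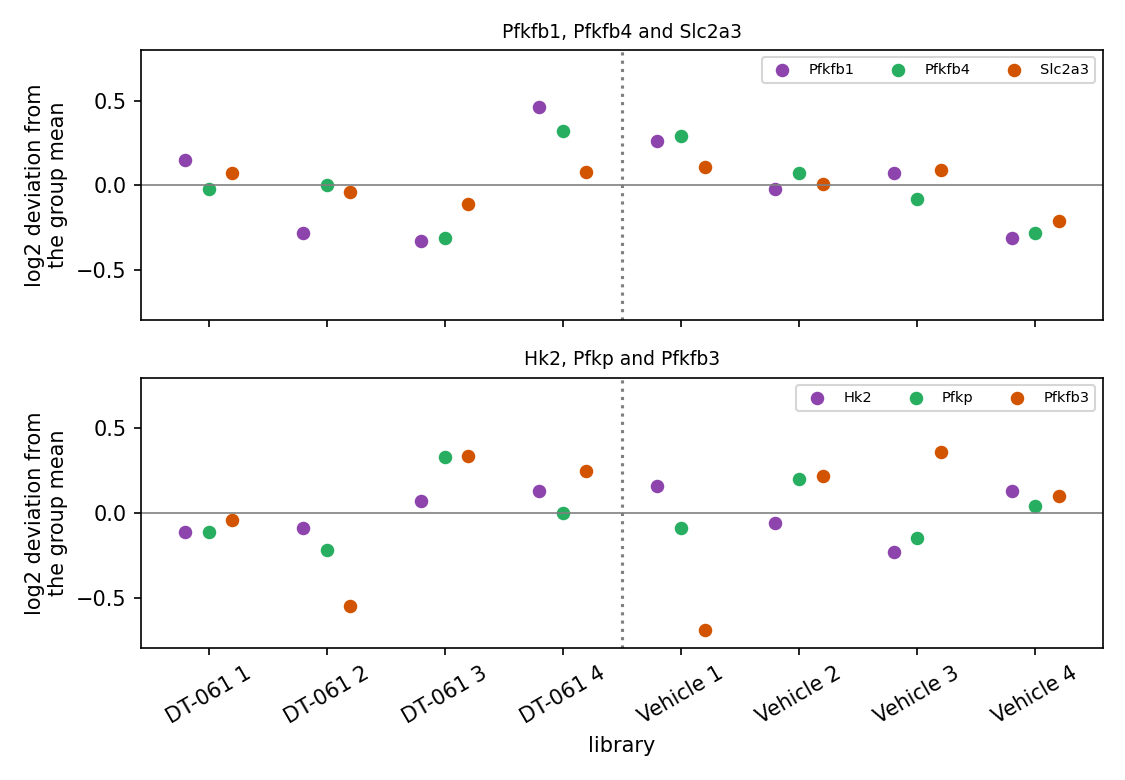
Deviation of log2(FPKM + 1) from the mean of the library's own group (y axis) for Pfkfb1, Pfkfb4 and Slc2a3 (top) and for Hk2, Pfkp and Pfkfb3 (bottom) in each library (x axis, DT-061 libraries left of the dotted line). In the top panel the 3 genes lie together below 0 in DT-061 library 3 and vehicle library 4; in the bottom panel Pfkfb3 reaches -0.69 in vehicle library 1 while Hk2 lies above 0 there.

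Markers of other cell types that were in the table had been selected for differing between the groups, so their difference is not a finding. The sums below cover only those markers, on the values as deposited. They were not computed under the other scalings, and the other markers of each list have no values here. In bulk tissue fewer cells of a type and less RNA per cell cannot be told apart. Of 21 markers of T and NK cells 15 were in the table, with summed levels of 3.18 to 10.3 FPKM in the DT-061 libraries and 8.27 to 94.0 FPKM in the vehicle libraries. Of 17 monocyte and macrophage markers 4 were in the table, at 14.0 to 72.7 FPKM with DT-061 and 83.4 to 376 FPKM with vehicle. Of 13 B and plasma cell markers 5 were in the table, at 69.8 to 117 FPKM with DT-061 and 176 to 2400 FPKM with vehicle. Vehicle library 4 had the lowest sum of its group in all 3 lists, and DT-061 library 3 likewise. Of 15 neutrophil and mast cell markers 3 were in the table, at 0.569 to 2.46 FPKM with DT-061 and 1.46 to 24.8 FPKM with vehicle, and S100a9 was the only marker at 0 in a library. Of 12 adipocyte markers 2 were in the table, at 74.1 to 335 FPKM with DT-061 and 498 to 1420 FPKM with vehicle. Of 15 contractile smooth muscle markers, which define the main cell of the aortic wall, 10 were in the table, at 16700 to 25300 FPKM with DT-061 and 9230 to 14500 FPKM with vehicle.

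Endothelial markers (2 of 12 in the table) had sums of 19.1 to 26.0 FPKM with DT-061 and 28.7 to 62.5 FPKM with vehicle. Fibroblast markers (3 of 12) had 84.8 to 155 FPKM with DT-061 and 221 to 361 FPKM with vehicle. Proliferation markers (6 of 13) had 7.36 to 16.7 FPKM with DT-061 and 17.2 to 43.3 FPKM with vehicle. Neuron and Schwann cell markers (3 of 10) were split, as 2 rose and 1 fell. Their sums were 135 to 148 FPKM with DT-061 and 97.2 to 128 FPKM with vehicle. None of 15 skeletal and cardiac muscle markers and none of 11 erythrocyte and platelet markers was in the table, and those cells were not analysed here.

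The glycolysis genes tracked different lists within the groups. The deviations of Slc2a3 had an r of 0.78 with those of the T and NK cell score (the mean log2(FPKM + 1) of the list), 0.86 with the monocyte and macrophage score, 0.91 with the B and plasma cell score and 0.89 with the adipocyte score. For Pfkfb4 the same values were 0.7, 0.89, 0.8 and 0.69, and for Pfkfb1 they were 0.52, 0.7, 0.72 and 0.82. With the endothelial score the values were 0.85 for Slc2a3, 0.71 for Pfkfb4 and 0.74 for Pfkfb1. Pfkp had an r of 0.9 with the contractile smooth muscle score and -0.84 with the fibroblast score. Pfkfb3 had an r of 0.71 with the contractile score and -0.78 with the neuron and Schwann cell score, whose genes were split in direction. With the 4 leukocyte scores Pfkfb3 had an r of -0.61 to -0.46, and with the endothelial score 0.07. Hk2 stayed between -0.11 and -0.06 with the 4 leukocyte scores, and had an r of -0.65 with the fibroblast score and 0.64 with the neuron and Schwann cell score. The part of these cells in the changes of the 6 genes was not tested. All r are over 8 libraries on the values as deposited, were not computed under the other scalings, and are descriptions.

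The protein coding genes closest to each of the 6, by the same correlation among 1009 genes with a mean of at least 1 FPKM, differed from gene to gene. For Slc2a3 they were Retn, the adipocyte hormone resistin (r = 0.97), Arhgap27 (0.97) and Apoe, the apolipoprotein E gene of macrophages and other cells (0.96), though the correlation with Retn was 0.61 with the common median and -0.32 after quantile normalization. For Pfkp they were Crtc1, a coactivator of CREB (0.98), the potassium channel gene Kcnc4 (0.97) and Unc45a, a myosin chaperone (0.97). For Pfkfb1 they were Robo4, an endothelial guidance receptor (0.92), Trim25, a ubiquitin ligase of the antiviral response (0.91), and the prostaglandin receptor gene Ptger3 (0.91), and the value for Robo4 was 0.85 with the common median and 0.71 after quantile normalization. For Pfkfb4 they were Amz1 (0.98), the atypical cadherin gene Fat4 (0.97) and Csf2rb2, a cytokine receptor subunit of mice (0.97), and the value for Amz1 was 0.48 with the common median and 0.84 after quantile normalization. Those of Pfkfb3 were Bex4, the histone acetyltransferase gene Kat6b and Rcl1, each at 0.92. Those of Hk2 were Grb14, an adaptor of the insulin receptor (0.88), the fatty acid binding protein gene Fabp3 (0.85) and Pidd1 (0.78). The first gene named for Pfkp, Pfkfb3 and Hk2 kept an r of at least 0.92 under both scalings.

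Other genes of glucose metabolism were searched in the table by list. The share of all genes that the table holds was not computed, so the number found is not read as few or many. Of 105 genes in 7 lists (glucose transporters, glycolytic enzymes, glycolysis regulators, gluconeogenesis, pyruvate and lactate handling, pentose phosphate and hexosamine pathways, and glycogen metabolism), 10 were in it, and 4 of these are outside the 6 genes. Over the 10, 2 rose and 8 fell as deposited (6 of these 8 turned direction under a scaling), and their median log2 change was -0.69, where that of the table was -0.58. All 10 had been selected on this contrast, so these calls are no independent evidence. By the same test 65.0% of the genes in the table fell and 30.4% rose. None of the 9 gluconeogenesis genes and none of the 14 pyruvate and lactate genes was in it, and those genes were not analysed here. Of 24 glycolytic enzyme genes, only Hk2 and Pfkp were present.

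Mlxipl, which encodes the glucose-responsive transcription factor ChREBP, had 2.97, 2.37, 6.36 and 4.82 FPKM in the DT-061 libraries, against 11.3, 10.7, 8.15 and 6.7 FPKM in the vehicle libraries. It fell by 1.04 ± 0.28 on the log2 scale (SE; limma adjusted p = 0.018), and the groups did not overlap. It lost its call with the common median, at -0.31, and with quantile normalization, at -0.44 (limma adjusted p = 0.39 and 0.19). Slc2a6, a transporter gene of the same family as Slc2a3, had 0.36, 0.425, 0.356 and 0.526 FPKM with DT-061 and 3.1, 1.5, 1.1 and 0.993 FPKM with vehicle. It was 4.01-fold lower by group means, the strongest relative decrease of the 10 genes, from about 17 to 161 fragments per library. It kept its call with the common median, at -0.47 (limma adjusted p = 0.034), and turned to a log2 change of 0.03 with quantile normalization. Uap1, which makes UDP-N-acetylglucosamine at the end of the hexosamine pathway, was 1.68-fold lower, at 28.7 ± 6.28 FPKM with DT-061 and 48.0 ± 6.96 FPKM in vehicle aortas (SD, n = 4). It turned to 0.08 with the common median and kept its call with quantile normalization, at -0.7 (limma adjusted p = 0.018). Phkg1, a catalytic subunit of phosphorylase kinase, which starts glycogen breakdown, rose by 0.62 ± 0.17 on the log2 scale (SE; limma adjusted p = 0.018), at 11.1 ± 1.77 FPKM with DT-061 and 6.93 ± 1.51 FPKM with vehicle. Phkg1 kept its call with the common median, at 1.38, and with quantile normalization, at 1.13 (limma adjusted p = 0.0054 and 0.011). With Pfkp it made up the genes of the 7 lists that rose.

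Lists related to regulation gave 4 entries of 51 listed, named after their values were seen. One list held the hypoxia-inducible factor and its targets, the other regulators of insulin and growth signalling. Of the targets of the hypoxia-inducible factor, Vegfa fell by 0.66 ± 0.16 on the log2 scale. It turned to 0.16 with the common median and kept its call with quantile normalization, at -0.52. Higd1a, a mitochondrial protein gene induced by low oxygen, rose by 0.44 ± 0.11, and the MYC antagonist gene Mxi1 had a change of 0.27 ± 0.12 without passing the test (SE, n = 4 per group; limma adjusted p = 0.016, 0.017 and 0.057). Mxi1 did pass it with the common median, at 1.0, with quantile normalization, at 0.93, and with limma run without trend and robust, at 0.27 (limma adjusted p = 0.0054, 0.0079 and 0.04). Higd1a kept its call with the common median, at 1.27, and with quantile normalization, at 0.43. Pik3cd, the leukocyte-enriched catalytic subunit gene of phosphoinositide kinase, had 4.12 ± 0.687 FPKM with DT-061 and 9.88 ± 5.39 FPKM in vehicle aortas (SD, n = 4; limma adjusted p = 0.027). Its vehicle libraries ran from 4.37 FPKM in library 4 to 17.3 FPKM in library 1. Pik3cd lost its call with the common median, at -0.23, and with quantile normalization, at -0.39 (limma adjusted p = 0.36 and 0.22). Leaving out any single one of DT-061 libraries 1 and 3 and vehicle libraries 2 and 3 ended it too, with limma adjusted p between 0.052 and 0.063.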

How the data were processed

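Per the labels' protocols, an Illumina NovaSeq gave paired-end reads of poly-A RNA from 8 ascending aorta libraries, 4 per group. The submitters' processing notes name featureCounts 1.5.0-p3, HISAT2 2.0.5 and StringTie 1.3.3b with no role for each, and mm10 as the build. The values are FPKM made by the authors and deposited for 1329 genes described as significant between the groups; no source used here gives the tool, the threshold or the fragment total behind them. No value column was left unmapped.

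The reference gene names gave symbols for 1328 genes. Coordinates and exonic lengths were those of GENCODE M21 (GRCm38, which is mm10). Depth was recovered from the steps between low values of FPKM times exonic length, where each step is the value of 1 fragment. Up to 60 steps and a tolerance of 0.03 were used, on genes already whole in at least 3 other libraries. At the step chosen, 93.5% to 100% of these 31 to 55 preselected values per library were whole, against 2.56% to 5.0% at the median step tried. Estimated fragments cover counting error only.

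limma 3.58.1 in R 4.3.3, with the trend and robust options, was fitted to log2(FPKM + 1) with treatment as the only term. P-values were adjusted by Benjamini-Hochberg over all 1329 genes, two-sided, with a threshold of 0.05. A change is DT-061 minus vehicle. The fit was tested on simulated data. The settings varied were a pseudocount of 0.1, a minimum mean of 1 FPKM, limma without its options, 2 scalings, a replicate block and libraries left out. The genes, lists and tests were chosen with earlier results of these data known. The named genes were the 6 genes, the genes of the 7 metabolism lists in the table, and for each of the 6 the 3 closest protein coding genes. Oga and Ero1a were searched under the older symbols that the reference table uses.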

Additional observations from a re-analysis of the deposited data

Results flagged for a closer look

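Of 58 groups of 4 values examined (14 genes and 15 ratios in each treatment group), 5 held a library far from the others, and chance flags about 1 in 20. Uap1 stood at 19.3 FPKM in DT-061 library 3, against 30.7 to 32.7 in the other DT-061 libraries. The same gene stood at 58.4 FPKM in vehicle library 4, against 43.3 to 45.6 in the other vehicle libraries. Mxi1 was 4.23 FPKM in vehicle library 4 and 5.37 to 5.48 in the other vehicle libraries. The ratio of Hk2 to Pfkfb4 was 2.63 in vehicle library 4 and 1.69 to 1.72 in the other vehicle libraries. The ratio of Pfkfb1 to Pfkfb3 was 0.299 in vehicle library 1 and 0.0974 to 0.119 in the other vehicle libraries.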

How the results depend on the processing

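The scaling had the strongest effect, and the cause was not tested. With the common median 0 of the 6 genes fell and 1, Pfkp, rose, at 1.21. Hk2, Pfkfb4, Uap1 and Vegfa turned to 0.31, 0.06, 0.08 and 0.16, and Pfkfb1, Pfkfb3 and Slc2a3 lost their calls at -0.19, -0.07 and -0.01. With quantile normalization 0 fell and 1, Slc2a3, rose, at 0.44; Pfkfb1, Pfkfb4 and Slc2a6 turned to 0.2, 0.04 and 0.03, and Hk2, Pfkfb3 and Pfkp lost their calls at -0.05, -0.54 and 0.42. With these scalings, in that order, 299 and 209 genes of the table fell, against 864 as deposited, while 434 and 394 rose, against 404. The correlation of Slc2a3 with Retn turned to -0.32 with quantile normalization. Mlxipl and Pik3cd lost their calls with both, while Mxi1 gained one at 1.0 and 0.93. Of the 10 genes of the metabolism lists, 1 fell with either. Ratios of Pfkp to the other genes stayed apart in 2 of 5 pairs with quantile normalization, an alternative chosen after seeing the data, and in 5 of 5 with the other settings tried.

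Same-numbered libraries did not deviate together (correlations of 0.18, -0.11, -0.05 and -0.47). With the replicate block 0 of the 6 genes rose and 3 fell, Pfkp, Pfkfb1 and Slc2a3 losing their calls at 0.38, -0.74 and -0.34, as did Phkg1 at 0.62 and Pik3cd at -0.97; 0 metabolism list genes and 204 genes of the table rose. With DT-061 library 3 and vehicle library 4 both left out, Pfkp lost its call at 0.29, so that 0 of the 6 genes and 1 metabolism list gene rose.

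Leaving out 1 library at a time, between 0 and 1 of the 6 genes rose and 3 to 5 fell. Pfkp ranged over 0.27 to 0.45, Pfkfb3 over -1.09 to -0.68 and Slc2a3 over -0.41 to -0.31. Hk2, Pfkfb1 and Pfkfb4 kept their calls in all 8 cases. Between 1 and 2 metabolism list genes rose, and 254 to 351 genes of the table rose, the fewest without vehicle library 3. The pseudocount of 0.1 and limma without its options changed no call of the 6 genes, though Mxi1 passed without those options. The minimum of 1 FPKM removed Slc2a3 and left 4 that fell. Slc2a3, at 37 to 140 estimated fragments, and Pfkfb1, at 51 to 256, are those of the 6 genes that depth limits most. Outside the 6, Slc2a6 had 17 to 161.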
